A study of Arabidopsis thaliana with 20 samples.

Results

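The genes described here are 10 *SQUAMOSA PROMOTER BINDING PROTEIN-LIKE* (*SPL*) genes of *Arabidopsis thaliana* whose mRNAs are targets of the microRNA miR156. They are *SPL2*, *SPL3*, *SPL4*, *SPL5*, *SPL6*, *SPL9*, *SPL10*, *SPL11*, *SPL13A* and *SPL15*. They were chosen by gene identifier, as 10 of the 27415 genes of a table of 21 and 22 nt small RNA reads from flower buds. The mutants were *cer7*, with 5 libraries from 2 insertion alleles (3 and 2 libraries), *rst1*, with 6 libraries from the insertion alleles *rst1-2* and *rst1-3* (3 each), and *ripr*, with 6 libraries from *ripr(insT)* and *ripr(insC)* (3 each), which carry 1 inserted base each. Wild-type Col-0 gave 3 libraries. The labels call the *cer7* alleles cer7-gabi and cer7-sail. These are matched to the allele names *cer7-3* (cer7-gabi) and *cer7-4* (cer7-sail) by inference. Only the first match rests on a stated insertion line, from the same collection, and the other name is left for cer7-sail. CER7 is a core subunit of the RNA exosome, the complex that degrades RNA from its 3′ end, and the study asked whether RST1 and RIPR work with the exosome in the cytoplasm. All lines are in Col-0, an accession without a fully functional SOV, an exoribonuclease that also attacks RNA from the 3′ end, so every group shares that background. According to the labels, 4 plants made up a sample and grew for 3 weeks with 12 h of light and then 3 weeks with 16 h, while the paper describes 5 to 10 plants in 16 h of light. The table counts small RNAs on genes, not mRNA.

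SPL proteins are plant transcription factors that bind DNA through the SBP domain. MiR156 is abundant in young plants and declines with age, and the release of the *SPL* mRNAs from it drives the change from juvenile to adult growth and promotes flowering. MiR156 guides ARGONAUTE1 to cut the mRNA within the paired site, which leaves a 5′ and a 3′ fragment. Such fragments are normally degraded by exonucleases, but they can be copied into double-stranded RNA by RNA-dependent RNA polymerase 6 and cut by DICER-LIKE enzymes into secondary small RNAs of 21 and 22 nt.

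The mature microRNAs are shown because all 10 genes carry a site for miR156a and because the lengths of the family decide whether they could be counted. The sequences were read from the RefSeq annotation of TAIR10.1, and the capitals mark the seed, bases 2 to 8.
miR156a to miR156f: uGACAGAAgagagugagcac
miR156g: cGACAGAAgagagugagcac
miR156h: uGACAGAAgaaagagagcac
miR156i: uGACAGAAgagagagagcag
miR156j: uGACAGAAgagagagagcac
miR157a to miR157c: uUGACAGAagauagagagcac
miR157d: uGACAGAAgauagagagcac
The miR156 sequences and miR157d share 1 seed and are 20 nt long, so full-length copies of them are outside the 21 and 22 nt reads of the table. MiR157a to miR157c are 21 nt long, start 1 base earlier and have the seed UGACAGA.

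The target sites show how alike the members are where miR156 binds. Each is written 5′ to 3′ as in the mRNA of TAIR10.1, and capitals mark bases that differ from the perfect complement of miR156a.
*SPL2*, *SPL6*, *SPL9*, *SPL10*, *SPL11*, *SPL13A* and *SPL15*: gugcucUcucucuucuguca
*SPL3*: UugcuUacucucuucuguca
*SPL4*: CugcucUcucucuucuguca
*SPL5*: CCgcucUcucucuucuguca
The 7 genes of the first line have the same site in the coding sequence, with 1 mismatch, opposite base 14 of miR156a. *SPL3*, *SPL4* and *SPL5* have their site in the 3′ UTR, with 2, 2 and 3 mismatches, and 1 of the mismatches of *SPL3* is a G:U pair. The best match in the 6 *SPL* genes outside the group (*SPL1*, *SPL7*, *SPL8*, *SPL12*, *SPL14* and *SPL16*) had 6 to 8 mismatches to miR156a. Only 1 of the 3 annotated transcripts of *SPL4* holds its site. The annotated miR156i and miR156j lie on the opposite strand exactly over the sites of *SPL4* and *SPL9*.

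**Figure D1:**
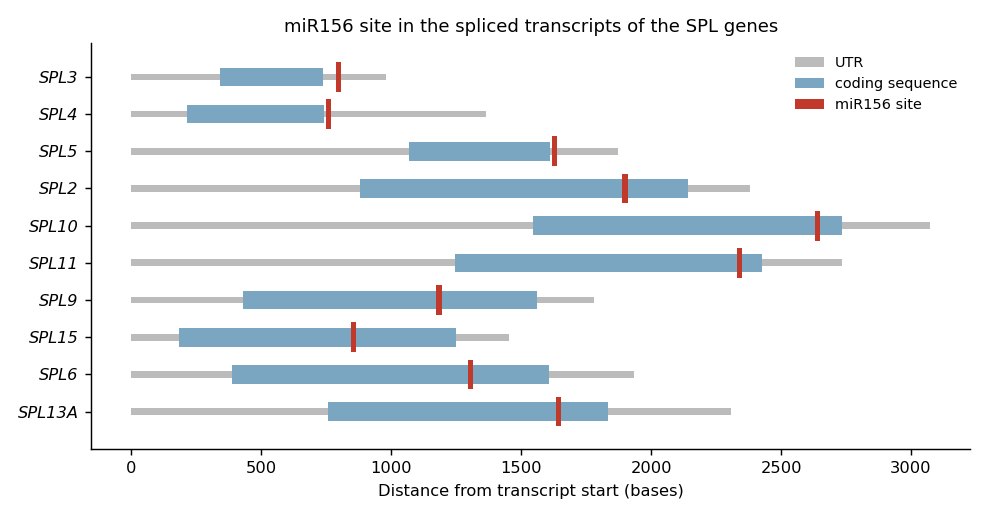
Spliced transcripts of the 10 *SPL* genes, drawn to scale in bases from the transcript start, with untranslated regions as thin grey bars, the coding sequence as blue boxes and the miR156 site as a red mark. The site falls just after the coding sequence in *SPL3*, *SPL4* and *SPL5* and inside it in the other genes, and 54.9% of the *SPL4* transcript and 86.5% of the *SPL5* transcript lie before it.

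Library totals of the table ran over 305475 to 522464 counts in *cer7*, 192747 to 296842 in *rst1*, 193616 to 371040 in *ripr* and 203245 to 230727 in the wild type. Levels are given in CPM, the usual depth-scaled count unit, relative to each library's counts on the 2916 genes kept by a filter on low counts, times its TMM factor. A gene was called raised or lowered where edgeR's quasi-likelihood test, fitted over all 20 libraries, gave a Benjamini-Hochberg adjusted p below 0.01 and the log2 fold change was beyond 1 or -1. Of the 10 genes, 7 passed the filter, and *SPL6*, *SPL13A* and *SPL15* did not. The filter was passed on the mutant libraries, since no member had more than 8 counts in a wild-type library, so the shares of called members below describe those 7 only. The 3 comparisons with the wild type share its 3 libraries. The counts on *CER7* and *RIPR* were too low to check the labels. *CER7* had 1 to 8 counts in *cer7* against 0 to 4 in the wild type, and *RIPR* had 0 to 1 in *ripr* against 0. *RST1* passed the filter, with 39.7 ± 32.6 CPM (SD) in *rst1*, against means of 10.4, 5.78 and 6.48 CPM in *cer7*, *ripr* and the wild type. Its ranges overlapped, with 1 to 23 counts in *rst1*, 2 to 5 in *cer7*, 0 to 4 in *ripr* and 0 to 3 in the wild type.

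Small RNAs of the miR156-targeted *SPL* genes were several-fold more abundant in all 3 mutants than in the wild type. The summed level of the 10 genes was 577 ± 83.7 CPM in *cer7* (SD, n = 5), 581 ± 63.9 CPM in *rst1* (n = 6), 614 ± 130 CPM in *ripr* (n = 6) and 104 ± 22.2 CPM in the wild type (n = 3). The lowest mutant library, of *ripr*, had 435 CPM, and the highest wild-type library had 122.5 CPM, so the groups did not overlap. The ratio of the means was 5.56 in *cer7*, 5.59 in *rst1* and 5.91 in *ripr*. In *cer7*, 7 of the 10 genes were raised (*SPL2*, *SPL3*, *SPL4*, *SPL5*, *SPL9*, *SPL10* and *SPL11*) and none was lowered, where 17.5% of all tested genes were raised and 2.3% lowered. In *rst1*, 5 were raised (*SPL2*, *SPL3*, *SPL9*, *SPL10* and *SPL11*), and none was lowered, where 9.91% of all tested genes were raised and 0.652% lowered. In *ripr*, 6 were raised, these 5 and *SPL5*, and none was lowered, where 9.88% of all tested genes were raised and 0.72% lowered. In a fit without the filter, which holds all 10 members, their median log2 fold change was 2.50 in *cer7*, 2.24 in *rst1* and 2.71 in *ripr*, while the median over the 25497 genes fitted was 0.42, 0.17 and 0.21. Among the 7 members that passed the filter, 7, 6 and 7 had all libraries of *cer7*, *rst1* and *ripr*, respectively, above all wild-type libraries. The same was true of 22.6%, 15.8% and 16.2% of all tested genes. With a test against a 2-fold change in place of a test against 0, 6, 3 and 4 members were called in *cer7*, *rst1* and *ripr*. That test called 259, 118 and 127 of all 2916 tested genes raised.

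**Figure D2:**
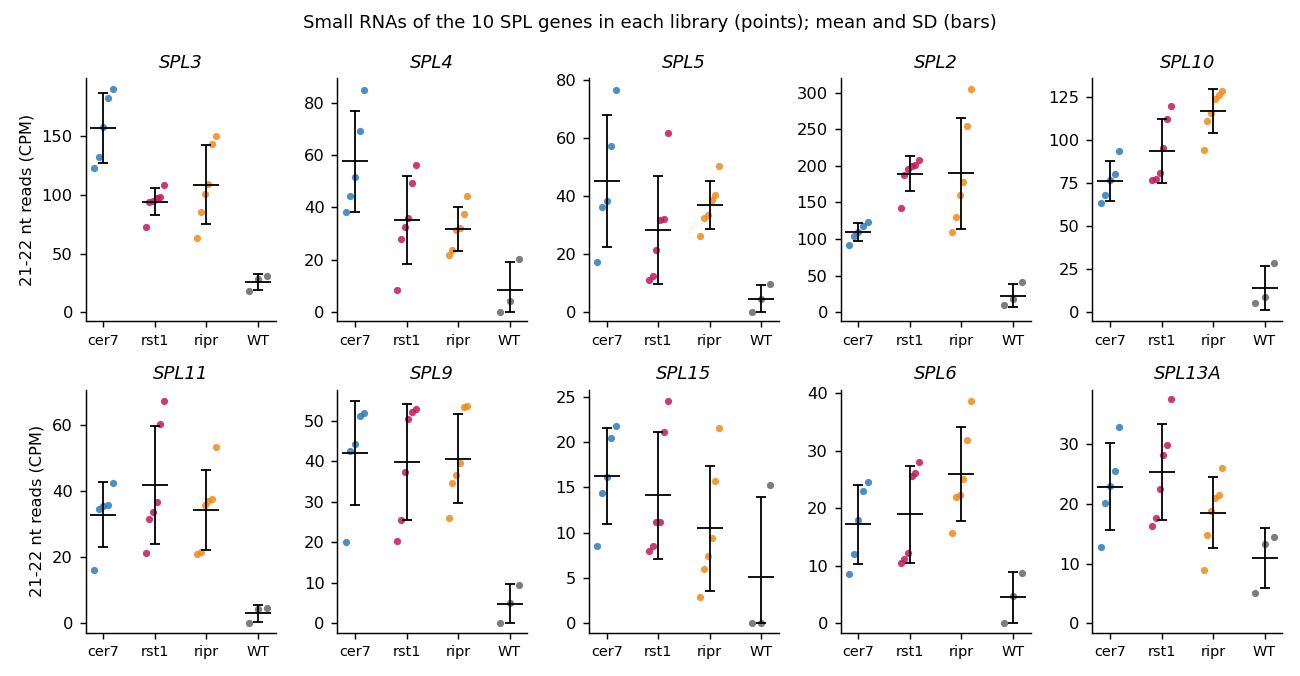
Level of 21 and 22 nt small RNAs (CPM, linear axes that differ between genes) of each of the 10 *SPL* genes, with *cer7*, *rst1*, *ripr* and wild type (WT) from left to right. Each point is 1 library, and bars show the mean and SD, with the lower bar ended at 0. For *SPL2*, *SPL3*, *SPL10*, *SPL11*, *SPL9* and *SPL5* all mutant points lie above the wild-type points, while those of *SPL15* and *SPL13A* overlap with them.

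*SPL3*, *SPL4* and *SPL5* encode small SPL proteins with little more than the SBP domain, which promote flowering and act on floral meristem identity genes. *SPL3* (AT2G33810, chr2:14305001-14306072, plus strand) had 158, 123, 191, 133 and 183 CPM in the *cer7* libraries. In *rst1* its lowest, median and highest library had 72.8, 96.2 and 108 CPM, and in *ripr* 62.9, 105.5 and 151 CPM. The wild-type libraries had 30.6, 28.7 and 17.6 CPM, which is 6, 6 and 4 counts. All mutant libraries were above the wild type, and all *cer7* libraries were above all of *rst1*. The log2 fold change was 2.61 ± 0.34 in *cer7* (SE, edgeR adjusted p = 3.99e-07), 1.88 ± 0.34 in *rst1* (edgeR adjusted p = 0.00014) and 2.10 ± 0.34 in *ripr* (edgeR adjusted p = 2.11e-05). In *rst1*, *SPL3* was not called by the test against a 2-fold change (edgeR adjusted p = 0.0313). A long non-coding RNA gene, AT2G33815, overlaps 1046 bases of *SPL3* on the opposite strand and has no row in the table.

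*SPL4* (AT1G53160, chr1:19806263-19807705, plus strand) had 51.8, 69.1, 38.2, 44.3 and 85.1 CPM in the *cer7* libraries. Across *rst1* libraries the lowest, median and highest value was 8.53, 34.4 and 56.1 CPM, and in *ripr* 22.0, 31.9 and 44.5 CPM. The wild-type libraries had 20.4, 0 and 4.41 CPM, that is 4, 0 and 1 counts. The *cer7* and *ripr* libraries were above the wild type, *ripr* by a narrow margin, and 1 *rst1* library, replicate 1 of *rst1-3*, was below the highest wild-type library. *SPL4* was raised in *cer7* (log2 fold change 2.78 ± 0.60, edgeR adjusted p = 0.00059), while its log2 fold changes of 2.11 in *rst1* and 1.94 in *ripr* did not pass the test (edgeR adjusted p = 0.0161 and 0.0279). These calls rested on single libraries. *SPL4* no longer passed in *cer7* once wild-type replicate 2 (2.19, edgeR adjusted p = 0.011) or replicate 3 (2.37, edgeR adjusted p = 0.0102) was left out. Without wild-type replicate 1, which held 4 of the 5 wild-type counts, the log2 fold change was 4.36 in *cer7*, 3.73 in *rst1* (edgeR adjusted p = 0.0047) and 3.56 in *ripr* (edgeR adjusted p = 0.0075). *SPL4* also passed in *rst1* without replicate 1 of *rst1-3* (2.31, edgeR adjusted p = 0.0048). Without wild-type replicate 2 it was 1.51 in *rst1* and 1.35 in *ripr*.

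*SPL5* (AT3G15270, chr3:5140365-5142323, minus strand) had 17.3, 38.4, 57.3, 36.2 and 76.6 CPM in the *cer7* libraries. The lowest, median and highest *rst1* library had 11.2, 26.5 and 61.6 CPM, and in *ripr* 26.2, 36.0 and 50.2 CPM. The wild type had 0, 9.57 and 4.41 CPM, from 3 counts in all. The groups did not overlap in any of the 3 comparisons, but the *cer7* and *rst1* libraries were spread widely. *SPL5* was raised in *cer7* (log2 fold change 3.10 ± 0.71, edgeR adjusted p = 0.00097) and in *ripr* (2.87 ± 0.71, edgeR adjusted p = 0.0037), and its log2 fold change of 2.41 in *rst1* did not pass (edgeR adjusted p = 0.0209). Over the summed counts the ratio to the wild type was 9.15 (95% counting interval 3 to 45.4) in *cer7*, 5.63 (1.79 to 28.5) in *rst1* and 7.99 (2.62 to 39.7) in *ripr*. *SPL5* no longer passed in *cer7* once wild-type replicate 1 was left out (2.57, edgeR adjusted p = 0.0104). In *ripr* it no longer passed once wild-type replicate 1 (2.37, edgeR adjusted p = 0.0321) or 3 (2.74, edgeR adjusted p = 0.0267) was left out. Without wild-type replicate 2 the log2 fold changes were 3.97, 3.25 and 3.73 in *cer7*, *rst1* and *ripr*. DESeq2 did not call *SPL5* in *ripr* (2.97, DESeq2 adjusted p = 0.0123). The test against a 2-fold change did not call it in *cer7* (edgeR adjusted p = 0.0101) or *ripr* (edgeR adjusted p = 0.0339).

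In TAIR10.1 the whole of *SPL5*, 1959 bases, lies within AT3G15260 on the opposite strand. AT3G15260 had as many counts as *SPL5* or up to 4 more in each of the 20 libraries, and *SPL5* had 177 counts against 204 of AT3G15260. AT3G15260 was itself called in *cer7* (log2 fold change 2.34, edgeR adjusted p = 0.002) and *ripr* (2.10, edgeR adjusted p = 0.0086), and not in *rst1* (1.70, edgeR adjusted p = 0.0423). Use of the strand in the counting is not given in the sources used here, so small RNAs of *SPL5* and of AT3G15260 cannot be told apart.

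**Figure D3:**
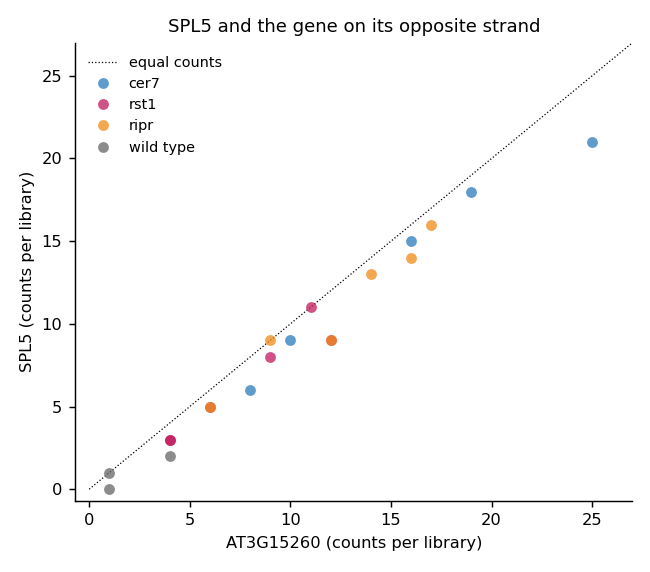
Counts of *SPL5* (vertical axis) against counts of AT3G15260, the gene on its opposite strand (horizontal axis), with 1 point for each of the 20 libraries and the dotted line at equal counts. All points lie on the line or up to 4 counts to its right, and the wild-type points lie nearest to 0.

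*SPL2*, *SPL10* and *SPL11* form a subgroup of longer SPL proteins that act in the shape of leaves and floral organs and in the change of phase. *SPL2* (AT5G43270, chr5:17360287-17363880, minus strand) had 92.0, 110, 117, 105 and 123 CPM in the *cer7* libraries. In *rst1* its lowest, median and highest library had 142, 198 and 207 CPM, and in *ripr* 110.1, 169 and 305 CPM. The wild type had 40.8, 9.57 and 17.6 CPM, from 8, 2 and 4 counts. All mutant libraries were above the wild type, and all *rst1* libraries were above all *cer7* libraries, while those of *ripr* had the widest spread. The log2 fold change was 2.27 ± 0.40 in *cer7* (edgeR adjusted p = 4.23e-05), 3.06 ± 0.38 in *rst1* (edgeR adjusted p = 2.99e-07) and 3.07 ± 0.38 in *ripr* (edgeR adjusted p = 2.31e-07). Without wild-type replicate 1, the highest of its group, these were 2.92, 3.74 and 3.76, and all 3 calls held.

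*SPL10* (AT1G27370, chr1:9505112-9508542, minus strand) and *SPL11* (AT1G27360, chr1:9500892-9504023, plus strand) are neighbours. *SPL10* had 63.3, 76.7, 68.2, 80.5 and 93.6 CPM in the *cer7* libraries. Among the *rst1* libraries the lowest, median and highest had 76.8, 88.1 and 120.2 CPM, and in *ripr* 94.4, 120.1 and 129 CPM, against 5.10, 28.7 and 8.81 CPM in the wild-type libraries. Every mutant library was above the wild type by more than 2-fold, and all *ripr* libraries were above all *cer7* libraries. *SPL10* was raised by a log2 fold change of 2.38 ± 0.39 in *cer7* (edgeR adjusted p = 1.95e-05), 2.68 ± 0.38 in *rst1* (edgeR adjusted p = 2.99e-06) and 3.00 ± 0.37 in *ripr* (edgeR adjusted p = 2.36e-07). Wild-type replicate 2 held 6 of the 9 wild-type counts, and without it the values were 3.31, 3.60 and 3.94.

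*SPL11* had 34.5, 35.8, 35.5, 16.1 and 42.5 CPM in the *cer7* libraries. In *rst1* its lowest, median and highest library had 21.3, 35.2 and 67.2 CPM, and in *ripr* 21.0, 36.4 and 53.4 CPM, against 0, 4.78 and 4.41 CPM in the wild type. The wild-type libraries held 2 counts of *SPL11* in all, and no mutant library held fewer than 4. *SPL11* was raised by 3.21 ± 0.70 in *cer7* (edgeR adjusted p = 0.0006), 3.52 ± 0.68 in *rst1* (edgeR adjusted p = 0.00029) and 3.30 ± 0.69 in *ripr* (edgeR adjusted p = 0.00065) on the log2 scale. From so few counts the ratio to the wild type was loosely bounded, at 10.5 (95% counting interval 2.78 to 89.3) in *cer7*, 12.8 (3.39 to 108) in *rst1* and 11.3 (2.99 to 95.05) in *ripr*. DESeq2 did not call *SPL11* in *ripr* (3.46, DESeq2 adjusted p = 0.0123).

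*SPL9* and *SPL15* are a closely related pair that sets the pace of leaf formation and takes part in the change to flowering. *SPL9* (AT2G42200, chr2:17587169-17589671, plus strand) had 20.1, 51.2, 51.8, 44.3 and 42.5 CPM in the *cer7* libraries. The *rst1* libraries had a lowest, median and highest value of 20.4, 43.9 and 52.8 CPM, and in *ripr* 26.0, 38.1 and 53.5 CPM. The wild type had 5.10, 9.57 and 0 CPM, from 3 counts in all. The mutant libraries covered nearly the same range in the 3 mutants, and all of them were above the wild type. *SPL9* was raised by 3.03 ± 0.63 in *cer7* (edgeR adjusted p = 0.00035), 2.95 ± 0.63 in *rst1* (edgeR adjusted p = 0.00092) and 2.99 ± 0.62 in *ripr* (edgeR adjusted p = 0.00063) on the log2 scale. The ratio over summed counts was 8.88 (95% counting interval 2.91 to 44.2), 8.38 (2.73 to 41.8) and 8.72 (2.87 to 43.3) in *cer7*, *rst1* and *ripr*. Without wild-type replicate 3, which had no count, the log2 fold changes were 2.34, 2.27 and 2.32, and the calls in *rst1* (edgeR adjusted p = 0.0194) and *ripr* (edgeR adjusted p = 0.0156) were lost. Without wild-type replicate 2 they were 3.89, 3.79 and 3.85. The test against a 2-fold change did not call *SPL9* in *rst1* (edgeR adjusted p = 0.0141) or *ripr* (edgeR adjusted p = 0.0108).

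*SPL15* (AT3G57920, chr3:21444243-21446035, minus strand) had 14.4, 20.5, 21.8, 16.1 and 8.51 CPM in the *cer7* libraries. In *rst1* its lowest, median and highest library had 8.01, 11.2 and 24.5 CPM, and in *ripr* 2.89, 8.42 and 21.5 CPM, against 15.3, 0 and 0 CPM in the wild type. All 3 wild-type counts came from replicate 1, which was within the range of each mutant. The ratio over summed counts was 3.58 (95% counting interval 1.10 to 18.4) in *cer7*, 3.03 (0.91 to 15.9) in *rst1* and 2.06 (0.60 to 10.96) in *ripr*. A fit without the filter on low counts did not call it in any mutant (edgeR adjusted p = 0.326, 0.589 and 0.713). AT3G57910 overlaps all of *SPL15* in TAIR10.1 on the opposite strand, yet it had 7, 1, 1 and 0 counts over the *cer7*, *rst1*, *ripr* and wild-type libraries, where *SPL15* had 27, 21, 17 and 3.

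*SPL6* (AT1G69170, chr1:26005068-26007368, plus strand), which takes part in innate immunity, had 29, 28 and 47 counts over the *cer7*, *rst1* and *ripr* libraries and 3 over the wild type. Its level was 17.2 ± 6.89 CPM in *cer7*, 19.0 ± 8.41 CPM in *rst1*, 25.9 ± 8.13 CPM in *ripr* and 4.53 ± 4.41 CPM in the wild type (SD, n = 5, 6, 6 and 3). All *rst1* and *ripr* libraries lay above the wild type, and 1 *cer7* library, at 8.51 CPM, lay just below the highest wild-type library at 8.81 CPM. The ratio over summed counts was 3.85 (95% counting interval 1.19 to 19.7), 4.04 (1.25 to 20.8) and 5.69 (1.83 to 28.6) in *cer7*, *rst1* and *ripr*. Without the filter its log2 fold changes were 1.86, 1.89 and 2.47, and none was called (edgeR adjusted p = 0.24, 0.379 and 0.0549).

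*SPL13A* (AT5G50570, chr5:20582083-20584721, minus strand) acts in the change from the cotyledon stage to vegetative leaves and has a near-identical copy, *SPL13B* (AT5G50670). None of its 2422 exonic stretches of 21 bases occurs only once in TAIR10.1, whereas 95.5% to 99.6% did in the other members. The authors aligned reads in unique mode, so the counts listed for both copies cannot be reads with a single place in this assembly, and how reads were split between the copies is uncertain. *SPL13A* was listed at 22.8 ± 7.30 CPM in *cer7*, 25.3 ± 8.03 CPM in *rst1*, 18.5 ± 5.95 CPM in *ripr* and 10.9 ± 5.04 CPM in the wild type. Both copies together had 39.8 ± 5.12, 46.7 ± 14.2 and 45.1 ± 12.9 CPM in *cer7*, *rst1* and *ripr*, against 23.8 ± 8.47 CPM in the wild type (SD). The ratio of these means was 1.67, 1.96 and 1.89. *SPL13A* was not called in any mutant without the filter (log2 fold changes 1.03, 1.14 and 0.79).

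**Figure D4:**
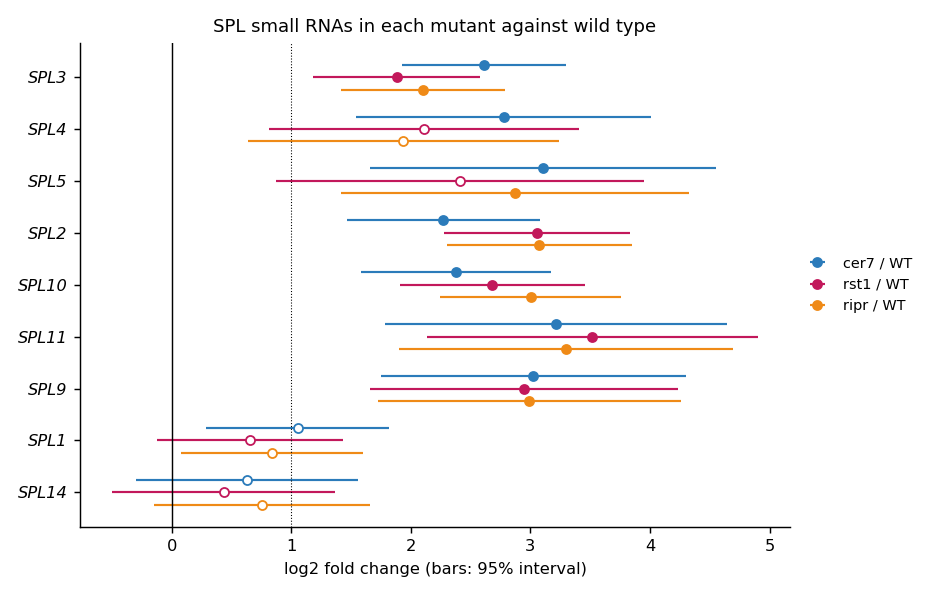
Log2 fold change against the wild type in *cer7* (upper point of each trio), *rst1* (middle) and *ripr* (lower) for the 7 tested miR156 targets and for *SPL1* and *SPL14*, which have no miR156 site. Bars are approximate 95% intervals derived from the edgeR test, filled points passed both thresholds, and the dotted line marks a log2 fold change of 1. All points of the miR156 targets lie at 1.88 or above, and the open points among them are *SPL4* and *SPL5* in *rst1* and *SPL4* in *ripr*.

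The 6 *SPL* genes without a miR156 site gave a level for the same family with no miR156 pairing. Their summed level was 177 ± 27.5 CPM in *cer7* (SD, n = 5), 143 ± 21.2 CPM in *rst1* (n = 6), 161 ± 36.1 CPM in *ripr* (n = 6) and 109 ± 21.3 CPM in the wild type (n = 3). The ratio of means was 1.63, 1.32 and 1.48 in *cer7*, *rst1* and *ripr*. Of the 6, *SPL1* and *SPL14* passed the filter and neither was called. *SPL1*, in *cer7*, had a log2 fold change of 1.05 (edgeR adjusted p = 0.0278), and its other values and those of *SPL14* were between 0.44 and 0.84. The other 4 genes had few counts, and none was called in the fit without the filter. *SPL12* had 19.3 ± 7.99, 15.5 ± 7.63 and 15.1 ± 6.25 CPM in *cer7*, *rst1* and *ripr*, against 4.76 ± 0.35 CPM in the wild type, where each library had 1 count. All *cer7* and *ripr* libraries of *SPL12* were above the wild type, and its ratio over summed counts, 3.85 (95% counting interval 1.19 to 19.7), 3.18 (0.95 to 16.6) and 3.03 (0.92 to 15.7), was of the size seen for *SPL6* and *SPL15*. *SPL8*, which acts in pollen sac formation, had ratios of 1.56, 0.83 and 0.79, and *SPL16* had 0.73, 1.01 and 1.33, all with intervals that include 1. *SPL7*, the regulator of copper uptake, had 3.65 ± 4.72, 7.49 ± 2.82 and 5.75 ± 4.66 CPM in *cer7*, *rst1* and *ripr*, against 11.1 ± 2.88 CPM in the wild type, from at most 4 counts in a library. Whether the targets and the other *SPL* genes differ in their response was not tested.

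Per kilobase of transcript, *SPL3* had the highest level of the 10 genes in every group, with 161 ± 30.5, 96.1 ± 11.9 and 111 ± 34.3 CPM per kb in *cer7*, *rst1* and *ripr*, against 26.1 ± 7.15 CPM per kb in the wild type. *SPL2* came second, at 46.0 ± 5.07, 79.4 ± 10.04 and 79.6 ± 31.6 CPM per kb, against 9.52 ± 6.82 CPM per kb. In *cer7* and in the wild type the distance from *SPL3* to *SPL2* was larger than the sum of their SDs, and in *rst1* and *ripr* it was not. Below *SPL2* the order changed between the groups, and few neighbours stood apart by more than the sum of their SDs. In *cer7* only *SPL9* (23.6) did so from *SPL11* (12.0 CPM per kb). In *rst1* it was only *SPL2* from *SPL10* (30.5 CPM per kb). In *ripr* it was *SPL2* from *SPL10* (38.0) and *SPL10* from *SPL4* (23.4 CPM per kb). The 7 genes that share 1 coding site had mean levels between 8.90 CPM per kb (*SPL6*) and 46.0 CPM per kb (*SPL2*) in *cer7*, so the same site came with levels that differed several-fold. The table has 1 count per gene, and where the reads lie relative to the site was not analysed here.

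The mutants were compared directly, since each comparison with the wild type rests on the same 3 libraries. In no pair did any of the 7 tested genes pass both thresholds. Over all tested genes, 2.09% were higher and 0.24% lower in *cer7* than in *rst1*, 2.5% and 0.377% in *cer7* than in *ripr*, and 0.377% and 0.103% in *rst1* than in *ripr*. *SPL2* in *cer7* was below *rst1* (log2 difference -0.79, 95% interval -1.27 to -0.31, edgeR adjusted p = 0.0409) and *ripr* (-0.80, -1.28 to -0.33, edgeR adjusted p = 0.0311). *SPL3* in *cer7* was above *rst1* (0.73, 0.29 to 1.16, edgeR adjusted p = 0.0364). These differences were under the 2-fold threshold and did not pass an adjusted p of 0.01. At an unadjusted p below 0.05 the *cer7* libraries also differed from *ripr* in *SPL3* (0.51, edgeR adjusted p = 0.136), *SPL4* (0.84, edgeR adjusted p = 0.145) and *SPL10* (-0.63, edgeR adjusted p = 0.0788), and none of the 7 genes did between *rst1* and *ripr*. For genes that did not pass, the intervals still allowed sizeable differences, such as -0.10 to 1.48 for *SPL5* between *cer7* and *rst1*.

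The size of these differences depended on the scaling of the *cer7* libraries. Their TMM factors were 0.78 to 0.94, against 0.99 to 1.11 in all other libraries. Their direction did not: over all alternatives, *SPL2* stayed lower in *cer7* than in *rst1* (-1.10 to -0.68) and *SPL3* higher (0.41 to 0.87). Scaled by totals only, the median of all tested genes between *cer7* and *rst1* was -0.31, against 0.01 with TMM, and *SPL2* was then called lower in *cer7* than in *rst1* (-1.10, edgeR adjusted p = 0.0017) and *ripr* (-1.11, edgeR adjusted p = 0.0013). Without TMM the split of all called genes in *cer7* against the wild type was 411 higher and 262 lower, in place of 510 and 67. All 7 members called in *cer7* were called under either scaling.

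**Figure D5:**
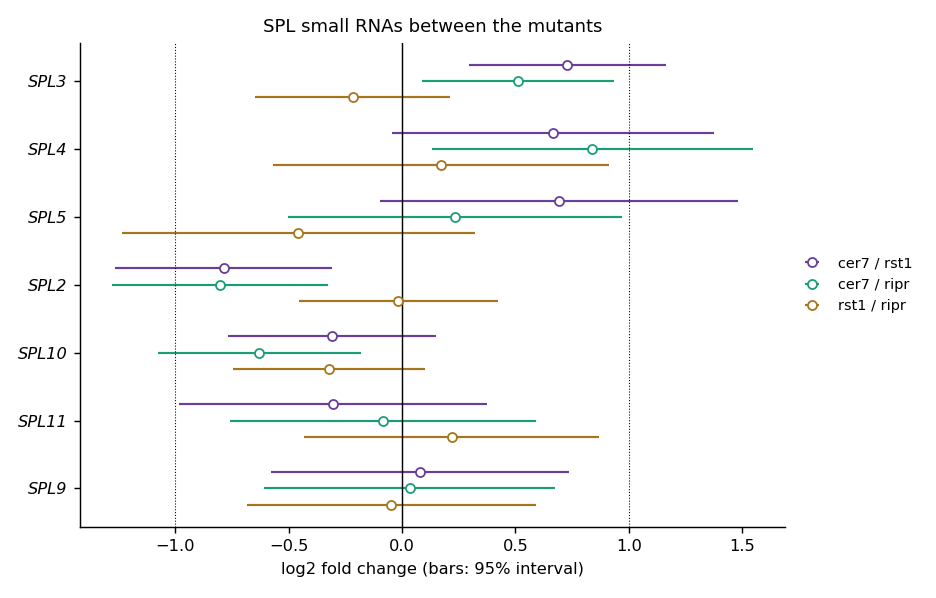
Log2 fold change of the 7 tested *SPL* genes between mutants, with *cer7* over *rst1* (upper point of each trio), *cer7* over *ripr* (middle) and *rst1* over *ripr* (lower). Bars are approximate 95% intervals derived from the edgeR test, and dotted lines mark a log2 fold change of 1 and -1. All points are open because none passed both thresholds. *SPL3* lies to the right of 0 and *SPL2* to the left in both comparisons of *cer7*, while all intervals of *rst1* over *ripr* include 0.

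The alleles of a gene were compared in a fit with 7 groups, in which 3329 genes were tested. None of the 7 members differed between *cer7-3* and *cer7-4*, *rst1-2* and *rst1-3*, or *ripr(insT)* and *ripr(insC)*. The shares of all tested genes that were called higher and lower were 0.12% and 0.24%, 0.21% and 0.03%, and 0% and 0%. No member had an unadjusted p below 0.05 in these comparisons. The widest log2 differences were those of *SPL4* (0.94, 95% interval -0.13 to 2.02) and *SPL5* (-0.94, -2.10 to 0.21) between *rst1-2* and *rst1-3*. Those of *SPL2* were -0.02 (-0.77 to 0.74), -0.12 (-0.76 to 0.52) and 0.21 (-0.42 to 0.83).

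Over the 20 libraries, the log2 CPM values of the 7 tested members were positively correlated in all 21 pairs (Pearson's r 0.51 to 0.87, median 0.77), which includes the difference between mutants and wild type. After subtraction of the group means, r ran between -0.39 and 0.61, with a median of 0.19. The 5 genes outside the family with the profile most like the mean of the members were AT4G17410 (r = 0.98), *PHO2* (0.97), *SAG20* (0.96), AT5G47430 (0.96) and *MT3* (0.96). *PHO2* encodes a ubiquitin-conjugating enzyme of phosphate homeostasis and *MT3* a metallothionein. Of the 2907 genes compared, 207 had an r above 0.8, and all points share the same libraries and scaling. By rank the 5 genes were less alike to the members (Spearman's rho 0.63 to 0.85), and after subtraction of the group means r was 0.51 to 0.72.

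A list of 19 genes around the miR156 module held flowering genes regulated by SPL proteins or acting beside them, regulators of trichomes and anthocyanins, and proteins of microRNA production and action. Of these, *AP1*, *AGL42*, *AGO1* and *DCL1* passed the filter. Only *AGO1* was called, as raised in *cer7*, *rst1* and *ripr*, where 17.5%, 9.91% and 9.88% of all tested genes were raised. *AGO1*, the slicer that carries miR156 and is itself a target of miR168, had 1501 ± 391, 1388 ± 324 and 1630 ± 285 CPM in *cer7*, *rst1* and *ripr*, against 306 ± 31.1 CPM in the wild type (SD, n = 5, 6, 6 and 3). Its log2 fold change was 2.29, 2.18 and 2.41 (edgeR adjusted p = 4.64e-09, 1.27e-08 and 1.81e-09). *AP1*, a floral meristem identity gene, had log2 fold changes of 0.90, 0.25 and 0.30 in the 3 mutants, and *DCL1*, which processes microRNA precursors, had 0.64, 0.51 and 0.37. *AGL42* had -0.42, 0.39 and 0.49. Its log2 difference was -0.81 between *cer7* and *rst1* (edgeR adjusted p = 0.117) and -0.91 between *cer7* and *ripr* (edgeR adjusted p = 0.0622). The other 15 genes of the list were not tested because of their low counts.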

How the data were processed

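Small RNAs of flower buds were sequenced in 20 libraries. The authors removed adapters with cutadapt 1.18, placed the reads on TAIR10 without mismatches using ShortStack in unique mode, and deposited raw counts of 21 and 22 nt reads for 27415 genes. The counting tool and its use of strand and of overlapping genes are not given in the sources used here. The table's columns were all used. Its totals cover 1 length class on genes and are not library depth.

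The *SPL* members and the lists of genes were chosen with earlier results of these data known. Named genes were the 10 members, *SPL13B*, the 6 other *SPL* genes, called genes of the module list, the 5 genes most correlated with the members and the 3 mutated genes. Of the overlapping genes, AT3G15260, AT3G57910 and AT2G33815 were added after values were seen, and *AP1*, *AGL42* and *DCL1* were named as the tested genes of the list.

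Counts were analysed with edgeR 4.0.16 in R 4.3.3: filterByExpr (minimum count 10, minimum total 15), TMM, glmQLFit with robust estimation over 4 groups with alleles together, and glmQLFTest, two-sided. P-values were adjusted by the Benjamini-Hochberg method over 2916 genes. The SE of a log2 fold change was back-calculated as its absolute value over the square root of the F statistic. The 95% intervals of log2 fold changes used this SE and t quantiles, so both are approximate. CPM used the same scaling for all genes. Each library was 1 replicate: the paper calls them biological replicates grown on different dates, and 19 pairs within alleles differed beyond counting noise, with a chi-square of 3.79 to 11.8 per degree of freedom. Counting intervals of ratios are exact binomial (Clopper-Pearson) intervals at 95% and cover counting error only. Sites were searched with up to 4 mismatches in the RefSeq transcripts of TAIR10.1. The table was annotated on TAIR10 and holds no coordinates, and gene models may differ between the annotations. Alternatives were DESeq2 1.42.0, other scalings, no filter, only the groups compared, a replicate block, glmTreat against a 2-fold change and leaving out each library. The scripts were tested on simulated data.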

Additional observations from a re-analysis of the deposited data

Results flagged for a closer look

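Of 30 combinations of a member and a mutant, 1 had a library that stood far from the others of its group. *SPL2* in *rst1* had its lowest library, replicate 3 of *rst1-2*, at 142.1 CPM (38 counts), while the other 5 libraries were between 188 and 207 CPM. Chance flags about 1 in 20 such groups. That library was still above all *cer7* and wild-type libraries for *SPL2*.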

How the results depend on the processing

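The number of members raised against the wild type was 5 to 7 in *cer7*, 3 to 6 in *rst1* and 4 to 6 in *ripr* over all alternatives, against 7, 5 and 6. The count in *rst1* was 3 with the test against a 2-fold change. With only the groups compared, 5, 4 and 5 members passed the filter in *cer7*, *rst1* and *ripr*, and all of these were called. Of all genes tested in this way, 336 of 2248, 211 of 2025 and 250 of 2239 were raised. As above, the members passed the filter on the mutant libraries. Leaving out 1 library gave 6 to 7, 4 to 6 and 4 to 6. No log2 fold change against the wild type changed sign. With library totals only, 1 member was called between *cer7* and *rst1* and 1 between *cer7* and *ripr*, where TMM gave 0. Signs turned only for differences between mutants that did not pass the test. With library totals, *SPL9* was -0.24 between *cer7* and *rst1* and -0.28 between *cer7* and *ripr*, and *SPL5* was -0.076 between *cer7* and *ripr*. Without the filter *SPL9* was -0.031 between *cer7* and *ripr*. Leaving out 1 library gave -0.091 to 0.24 for *SPL9* between *cer7* and *rst1*, and -0.10 to 0.19 for *SPL9* and -0.17 to 0.14 for *SPL11* between *cer7* and *ripr*. Between *rst1* and *ripr* it gave -0.13 to 0.17 for *SPL2*, -0.0091 to 0.37 for *SPL4* and -0.18 to 0.089 for *SPL9*. Over all genes, the test against a 2-fold change called 259, 118 and 127 raised in *cer7*, *rst1* and *ripr*, in place of 510, 289 and 288. With only the groups compared, *cer7* had 336. The cause of these shifts was not tested.

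A replicate block left the counts of raised members at 7, 5 and 6 and turned *SPL2* between *rst1* and *ripr* to 0.025, with no other sign or call changed. The labels give libraries with the same replicate number the same leading number (1, 2 or 4) in every genotype. The paper describes different growth dates and chambers, but neither source says what the number marks. The replicate numbers were therefore not treated as a pairing. Same-numbered libraries had correlations of -0.16 to 0.27 (median 0.07, above 0.1 in 14 of 57 pairs). Libraries with different numbers had -0.25 to 0.17 (median -0.03, above 0.1 in 5 of 114 pairs). In these deviations, 15 of the 20 libraries correlated best with a library of their own number. Same-numbered libraries were thus more alike than others on this measure, and the source of this likeness was not tested. With 2 to 16 counts of each raised member over the 3 wild-type libraries, the size of each change is less certain than its direction.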

Other observations

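The 3 members with a site in the 3′ UTR (*SPL3*, *SPL4* and *SPL5*) and the 7 with a site in the coding sequence were also summed separately. This split was made after the values were seen, and no test was run. The 3 genes had 44.8 ± 3.41% of the sum in *cer7* (SD, n = 5), 27.2 ± 1.82% in *rst1* (n = 6), 29.0 ± 2.06% in *ripr* (n = 6) and 36.6 ± 4.46% in the wild type (n = 3). The *cer7* libraries had 41.5% to 50%, above all of *rst1* (25.4% to 29.8%) and *ripr* (27.2% to 32.7%), and the wild type had 33.3% to 41.7%. These shares do not depend on the scaling between libraries. The level of the 3 genes was 260.3 ± 54.8, 158 ± 20.0 and 178 ± 36.7 CPM in *cer7*, *rst1* and *ripr*, against 38.6 ± 12.3 CPM in the wild type. That of the 7 was 317 ± 34.5, 423 ± 48.1 and 436 ± 96.1 CPM, against 65.4 ± 10.8 CPM in the wild type. Most of the difference of the 7 between mutants came from *SPL2*, with means of 109, 189 and 190 CPM in *cer7*, *rst1* and *ripr*. *SPL10* followed, with 76.4, 93.8 and 117 CPM. The means of the other genes with a coding site differed less, some being higher and some lower in *cer7*. Whether the shares follow the place of the site was not tested. *SPL5* enters these sums with reads that cannot be told apart from those of AT3G15260.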
